A study of Mus musculus with 12 samples.

Results

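The 30 genes described here encode nuclear receptors other than the vitamin D receptor, measured by RNA sequencing in mouse dorsal epidermis. They were taken from a list of receptor symbols, matched to the gene numbers of the deposited tables, and all 30 had values among the 19392 genes listed at P36 and the 17750 listed at 6 months. The DKO mice carried K14 Cre+/- together with homozygous floxed alleles of both genes (VDR fl/fl and Med1 fl/fl). The control mice carried the same floxed alleles with K14 Cre-/-, so the floxed alleles were common to every group and the Cre transgene was the labelled difference. All mice were on a C57BL/6 background. Epidermis was collected at postnatal day 36 (P36) and at 6 months, with 3 libraries per genotype and age and 12 libraries in all. The K14 promoter drives Cre in basal keratinocytes and their descendants, so cells of other origin in the sheet keep both genes. Nothing in the labels says whether the libraries of a group came from separate animals, so the p-values measure the spread between these libraries.

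Nuclear receptors are transcription factors that share a zinc-finger DNA-binding domain and, in most members, a ligand-binding domain. Hormones, retinoids, oxysterols or fatty acids switch many of them between corepressor-bound and coactivator-bound states, and MED1 is the Mediator subunit through which several of them contact the transcription machinery. In skin, retinoic acid receptors pair with retinoid X receptors in the control of keratinocyte differentiation, the glucocorticoid receptor acts on barrier formation and inflammation, and PPAR and liver X receptors act on lipid production. The NR4A receptors differ from the rest in that their genes are transcribed within minutes of a stimulus, as immediate early genes are.

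Expression was deposited as FPKM, a unit scaled to transcript length and to the mapped fragments of the library, which allows levels to be compared between genes of different length. Sequencing depth is unknown because no counts were used. Differences between groups are on the log2(FPKM + 1) scale, where the change of a gene near 1 FPKM is understated, and were tested with limma across all genes that reached 1 FPKM in 3 or more of the libraries fitted. A gene is called at a Benjamini-Hochberg adjusted p below 0.05. Each age came as its own table, so age and table cannot be told apart.

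Before the receptors, the libraries were set against their labels. Med1 measured 10.35, 8.78 and 8.20 FPKM in the DKO libraries and 13.94, 14.19 and 13.22 FPKM in the control libraries at P36, a fall by 0.55 on the log2 scale (limma adjusted p = 0.0083). At 6 months the Med1 difference was -0.26 (limma adjusted p = 0.13). For Vdr, no fall was seen under the DKO label, with differences of 0.29 at P36 (limma adjusted p = 0.0573) and 0.27 at 6 months (limma adjusted p = 0.302), so the DKO libraries are named by their label throughout. Basal keratinocyte markers (6 genes) and suprabasal markers (7 genes) all averaged above 1 FPKM in every group. Genes of the hair matrix and shaft summed to 9616 to 13154 FPKM in DKO and 21429 to 27881 FPKM in control at P36, and to 9.97 to 32.9 FPKM in DKO and 16.6 to 27.3 FPKM in control at 6 months. In such bulk tissue, fewer cells of a type and less RNA per cell cannot be told apart.

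Of the 30 receptors, 21 reached a mean of 1 FPKM in at least 1 group and 15 did so in all 4 groups. By group, 16 reached it in DKO and 16 in control at P36, and 18 in DKO and 20 in control at 6 months. The 9 that stayed below 1 FPKM in every group were Nr1h4, the bile acid receptor, Nr2e3, a photoreceptor gene, Nr2f1, Nr3c2, the mineralocorticoid receptor, Esr2, Pgr, the progesterone receptor, Esrrb, Esrrg and Nr5a2. Among them 4 were at 0.1 FPKM or less in every library (Nr2e3, Pgr, Esrrb and Esrrg).

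**Figure D1:**
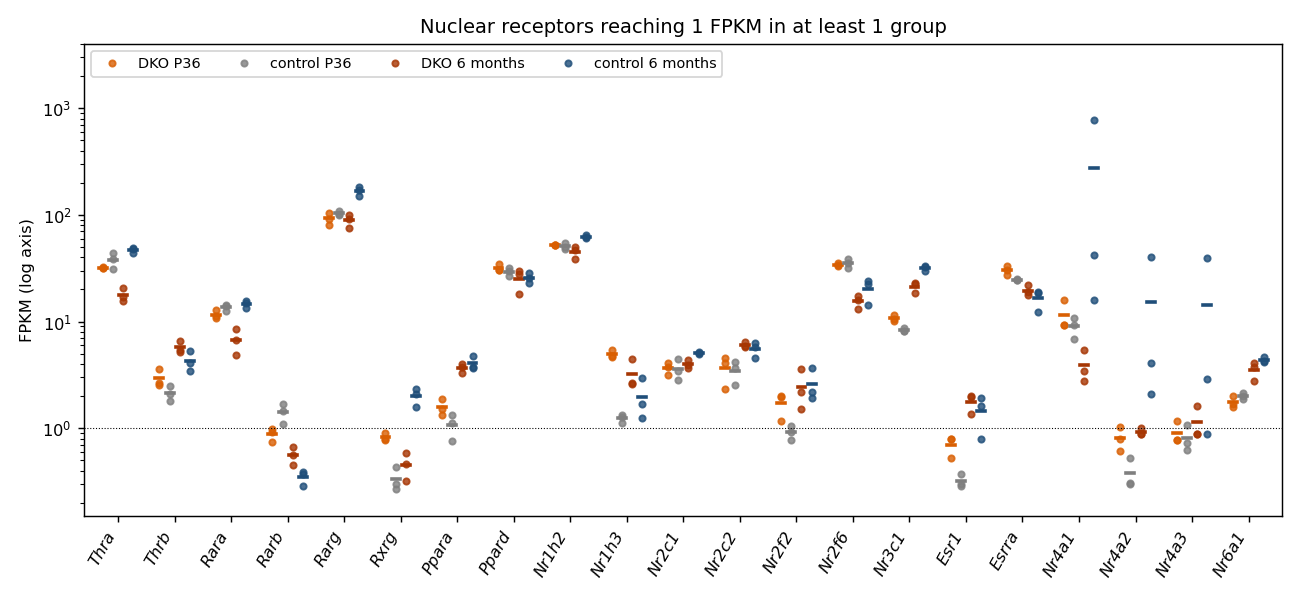
FPKM on a log axis for the 21 receptors that reached a mean of 1 FPKM in at least 1 group, in receptor-class order, with 1 point per library, a bar at the mean of 3 libraries and a dotted line at 1 FPKM. Rarg has the highest mean, with Nr1h2 next, in every group but control at 6 months, where Nr4a1 spans 16.1 to 770 FPKM and has the highest mean.

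Rarg, the main retinoic acid receptor of epidermis, had the highest mean of the 30 in every group but control at 6 months, followed by Nr1h2, which encodes liver X receptor beta. Rarg measured 81.23, 91.63 and 105.18 FPKM in DKO and 99.48, 109.68 and 102.19 FPKM in control at P36, and averaged 88.6 ± 12.4 FPKM in DKO and 167 ± 16.6 FPKM in control at 6 months (SD, n = 3 each). In each of the 4 groups its lowest library lay above the highest of Nr1h2. In the 6-month control group Nr4a1 had a higher mean than Rarg, through 1 library alone, and their ranges overlapped. Rarg made up 27.9% of the summed mean FPKM of the 30 receptors in DKO and 31.4% in control at P36, and 31.8% in DKO and 23.1% in control at 6 months. Without control replicate 1, where Nr4a1 was highest, the 6-month control share was 37.7%, so the order of the genotypes at that age rests on that library. Below Nr1h2, in the control libraries at P36, came Thra and Nr2f6, whose ranges overlapped, then Ppard, Esrra and Rara, each clear of the next. In DKO at 6 months Ppard, Nr3c1, Esrra, Thra and Nr2f6 followed Nr1h2 with overlapping neighbours.

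At P36, 2 of the 17 receptors tested were higher in DKO (Nr1h3 and Nr3c1) and 0 were lower, against a background of 23.3% of 12660 genes called in either direction, 18% higher and 5.32% lower. With no adjustment, limma gave 4 higher and 1 lower at p below 0.05. Under median-ratio scaling 1 was higher (Nr1h3) and 1 was lower (Rara, -0.31, limma adjusted p = 0.0479). At 6 months 7 of the 20 tested were lower in DKO and 0 were higher. The background was 41.3% of 12594 genes called, with 18.2% of all genes lower and 23.2% higher. The unadjusted count of receptors at 6 months was 9 lower and 0 higher. The 7 were Thra, Rara, Rarg, Rxrg, Nr1h2, Nr3c1 and Nr4a1. Rxrg reached 1 FPKM only in the 3 control libraries and entered the test through them alone, so its call adds no support. Without it the count was 6 of 19. The median difference of the receptors tested was 0.04 at P36, against 0.09 over all genes, and -0.32 at 6 months, against 0.04 over all genes. The groups did not overlap for 6 of the receptors tested at P36, where 39.6% of all genes did not, and for 10 at 6 months, where 55.7% did not. Rarb at P36 and Rxrg at 6 months are among them, and each entered only through the 3 control libraries. The filter fixed their lack of overlap, and each is also in the median of its age.

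**Figure D2:**
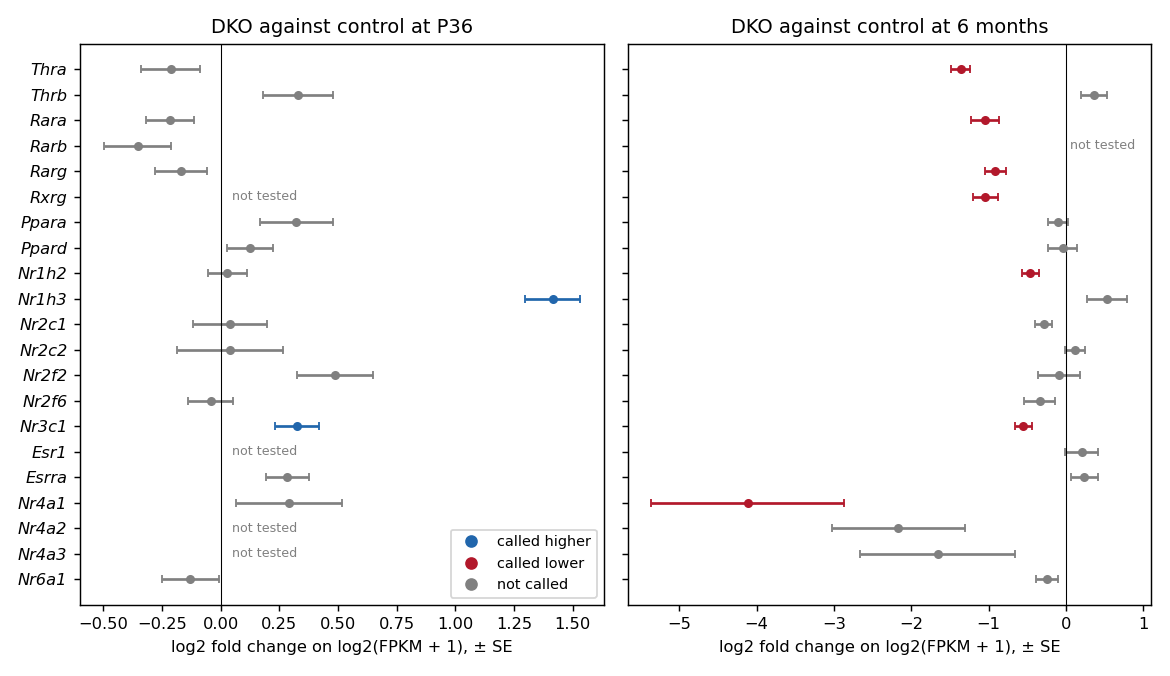
Log2(FPKM + 1) differences, DKO minus control, with their standard errors, for the receptors tested at P36 and at 6 months, blue where limma called the gene higher, red where lower and grey where not called. Nr1h3 stands apart on the positive side at P36, Nr4a1 has the lowest value and the widest error at 6 months, and the horizontal scales of the panels differ.

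The difference between the 6-month and P36 effects was tested in a joint fit of all 12 libraries, which kept 21 of the receptors. It was called for 9, of which 8 were lower (the 7 above and Nr1h3) and 1 was higher (Rarb), against a background of 34.9% of 13280 genes, 21.1% lower and 13.8% higher. The median of this difference was -0.49 over the receptors tested and -0.08 over all genes. Rxrg entered this fit only through the 6-month control libraries and Rarb only through the P36 control libraries, and without them 7 of 19 were called, all of them lower. The median of the receptors includes both.

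The thyroid hormone receptors bind triiodothyronine, and Thra was the more abundant of the pair in all 4 groups. At 6 months Thra measured 16.89, 15.73 and 20.48 FPKM in DKO and 48.32, 43.48 and 48.91 FPKM in control. The groups were far apart, and Thra fell by 1.36 on the log2 scale (SE 0.12, limma adjusted p = 0.0004). At P36 it measured 32.08, 31.87 and 32.42 FPKM in DKO and 38.42, 43.95 and 30.91 FPKM in control, with overlapping groups and a difference of -0.21 (SE 0.13, limma adjusted p = 0.284). The effect at 6 months was lower than that at P36 by 1.15 on the log2 scale (SE 0.18, limma adjusted p = 0.000893). Exons of Thra share 5.7% of their bases with Nr1d1 on the opposite strand, and whether the counting used strand was not stated. Nr1d1, the clock repressor REV-ERB alpha, measured 25.45, 16.91 and 17.64 FPKM in DKO and 45.6, 47.14 and 34.53 FPKM in control at 6 months, a fall by 1.06 (limma adjusted p = 0.00447), and its part in the Thra value was not tested. Thrb did not pass the test at either age, with 5.46, 6.55 and 5.19 FPKM in DKO and 5.34, 3.44 and 4.08 FPKM in control at 6 months. These groups overlapped, and the difference was 0.36 (limma adjusted p = 0.117), or 0.50 without control replicate 1 (limma adjusted p = 0.0358).

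At P36, where 18% of all genes were higher, 3 of the 8 tested among the 9 listed thyroid hormone receptor targets were higher. They were Thrsp, a lipogenic regulator (2.69, limma adjusted p = 0.000168), Bcl3 (1.43) and Me1, malic enzyme (0.86). At 6 months 1 of 7 tested was called, Bcl3, which was higher by 1.06 (limma adjusted p = 0.00606). Over all genes 41.3% were called at that age, so this count does not stand above the background.

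The retinoic acid receptors act as heterodimers with retinoid X receptors, and both abundant ones, Rara and Rarg, were lower in DKO at 6 months. Rarg measured 99.11, 74.99 and 91.79 FPKM in DKO and 148.81, 172.27 and 180.96 FPKM in control at 6 months. The groups did not overlap, and the fall was 0.91 on the log2 scale (SE 0.13, limma adjusted p = 0.00224). Rara measured 6.70, 4.88 and 8.56 FPKM in DKO and 13.55, 15.55 and 14.95 FPKM in control, again without overlap, a fall by 1.05 (SE 0.18, limma adjusted p = 0.00406). At P36 neither passed the test, with differences of -0.17 for Rarg (limma adjusted p = 0.333) and -0.22 for Rara (limma adjusted p = 0.178). The effects at the 2 ages differed by -0.75 for Rarg and -0.83 for Rara (limma adjusted p = 0.00798 for Rarg and 0.0118 for Rara).

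Rxrg, a retinoid X receptor best known from muscle and brain, was present at a low level. At 6 months it measured 0.32, 0.46 and 0.58 FPKM in DKO and 1.59, 2.08 and 2.34 FPKM in control, without overlap. It entered the test only through the control libraries, and leaving out any 1 of them removed it from the test, so the call made there is not support for a fall. Its difference was -1.04 on the log2 scale, with an adjusted p of 0.00287 where limma was run with no filter on low values. At P36 the order was the other way, with 0.91, 0.77 and 0.80 FPKM in DKO and 0.30, 0.43 and 0.27 FPKM in control. That difference was 0.46 where no filter on low values was applied (limma adjusted p = 0.00699), and the effects at the 2 ages differed by -1.50 (limma adjusted p = 0.00015 with no filter). Skeletal muscle markers (10 genes) summed to 129 to 550 FPKM in DKO and 14.4 to 28.6 FPKM in control at P36, and to 10.8 to 138 FPKM in DKO and 10.3 to 61.6 FPKM in control at 6 months. Their part in the Rxrg values was not tested.

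Rarb, itself a retinoic acid-induced gene in many cells, measured 0.92, 0.99 and 0.75 FPKM in DKO and 1.10, 1.70 and 1.46 FPKM in control at P36. At 6 months it measured 0.56, 0.45 and 0.67 FPKM in DKO and 0.37, 0.39 and 0.29 FPKM in control, too low to enter the 6-month test. The groups did not overlap at either age, and they stood in opposite order. Rarb reached 1 FPKM only in the 3 P36 control libraries, and leaving out any 1 of them removed it from the test. The P36 difference of -0.35 did not pass the test (limma adjusted p = 0.121), while the effects at the 2 ages differed by 0.56 (SE 0.18, limma adjusted p = 0.0301, and 0.0129 with no filter on low values). That call was lost without replicate 1 or 3 of DKO at 6 months, replicate 3 of control at 6 months or replicate 3 of DKO at P36, and the adjusted p over the alternatives ran from 0.0129 to 0.0738. Exons of Rarb share 34.1% of their bases with Top2b on the opposite strand, which was higher by 0.54 in DKO at 6 months (limma adjusted p = 0.00405), and its part in the Rarb value was not tested.

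The retinoic acid receptor targets split in direction. At P36 3 of 8 tested were higher in DKO and 1 was lower, where 18% of all genes were higher and 5.32% lower. Stra6, the cellular retinol importer, fell by 1.42 (limma adjusted p = 0.000168), while Tgm2, a transglutaminase, rose by 1.32 (limma adjusted p = 0.000609) and Crabp2, which carries retinoic acid to its receptors, by 0.79 (limma adjusted p = 0.0167). At 6 months 3 of 7 were higher and 1 was lower, where 23.2% of all genes were higher and 18.2% lower. Lrat, which esterifies retinol, measured 14.73, 12.31 and 12.75 FPKM in DKO and 0.69, 0.61 and 0.53 FPKM in control and was higher by 3.14 (limma adjusted p = 4.03e-05). Crabp2 was higher by 1.67 (limma adjusted p = 0.000129). Cyp26b1, which degrades retinoic acid, was the 1 that was lower, with 5.39, 3.56 and 7.68 FPKM in DKO and 45.77, 44.88 and 53.03 FPKM in control, a fall by 2.95 (limma adjusted p = 0.000242).

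Nr1h3, which encodes liver X receptor alpha, an oxysterol sensor of macrophages, liver and sebocytes, was the receptor with the largest called difference at P36. It measured 4.80, 5.47 and 4.70 FPKM in DKO and 1.12, 1.34 and 1.28 FPKM in control. The groups did not overlap, and it was higher by 1.41 on the log2 scale (SE 0.12, limma adjusted p = 0.000448). At 6 months it measured 2.68, 2.58 and 4.50 FPKM in DKO and 1.24, 1.69 and 2.96 FPKM in control, with overlap and a difference of 0.53 (SE 0.26, limma adjusted p = 0.138). The effects at the 2 ages differed by -0.88 (SE 0.30, limma adjusted p = 0.038), a call held in 6 of 17 alternative settings, with adjusted p from 0.00952 to 0.0912. Leaving out any 1 of the P36 libraries, control replicate 2 or 3 or DKO replicate 1 or 2 of 6 months ended it. At P36 markers of macrophages, neutrophils and mast cells summed to 313 to 448 FPKM in DKO and 75.0 to 144 FPKM in control. They summed to 314 to 720 FPKM in DKO and 97.6 to 159 FPKM in control at 6 months. Of these 11 markers, 8 were called higher and 1 lower at P36, and 3 higher and 1 lower at 6 months. Over all genes 18% were higher and 5.32% lower at P36, and 23.2% higher and 18.2% lower at 6 months. The 6-month counts are thus near or below the background. At 6 months S100a8 and S100a9 averaged 143 and 174 FPKM in DKO and 6.71 and 11.3 FPKM in control. Adgre1 then averaged 3.78 FPKM in DKO and 3.65 FPKM in control, and Csf1r 9.95 FPKM in DKO and 15.9 FPKM in control. Sebaceous gland markers summed to 365 to 513 FPKM in DKO and 147 to 224 FPKM in control at P36, and to 699 to 891 FPKM in DKO and 328 to 609 FPKM in control at 6 months. Scd1 is counted both here and among the liver X receptor targets below. It had the highest mean of the sebaceous markers at P36, with 301 FPKM in DKO and 108 FPKM in control. No listed marker of either cell group was at 0 in every library of a group, and their part in the Nr1h3 values was not tested.

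Nr1h2 measured 51.95, 51.92 and 51.89 FPKM in DKO and 54.79, 49.73 and 48.36 FPKM in control at P36, the difference being 0.03 (SE 0.08, limma adjusted p = 0.852). At 6 months it measured 50.06, 38.67 and 47.29 FPKM in DKO and 60.45, 62.52 and 64.50 FPKM in control. These groups did not overlap, and Nr1h2 fell by 0.46 (SE 0.11, limma adjusted p = 0.0167). The 6-month call was lost without control replicate 2 (limma adjusted p = 0.0523) or control replicate 3 (limma adjusted p = 0.0584). Of the 9 listed liver X receptor targets, 5 were higher in DKO at P36, where 18% of all genes were. Among the 5 were Scd1, a fatty acid desaturase (1.49, limma adjusted p = 0.00163), Lpcat3, a phospholipid-remodelling enzyme (0.78), and Srebf1, a regulator of lipid synthesis (0.62). At 6 months 2 of the 9 were higher, Smpdl3a (1.40, limma adjusted p = 0.00146) and Lpcat3 (0.87), and Srebf1 fell by 0.47 (limma adjusted p = 0.0175). Over all genes 23.2% were higher and 18.2% lower at that age, so neither count stands above the background.

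The fatty acid receptors Ppara and Ppard did not pass the test between genotypes at either age. Ppard, the abundant keratinocyte form, measured 30.61, 34.31 and 30.59 FPKM in DKO and 26.48, 31.47 and 29.55 FPKM in control at P36, and 29.57, 18.21 and 28.03 FPKM in DKO and 23.22, 28.32 and 25.36 FPKM in control at 6 months. The differences were 0.12 and -0.04 (limma adjusted p = 0.428 and 0.863), and the groups overlapped at both ages. Ppara measured 1.53, 1.32 and 1.90 FPKM in DKO and 1.32, 1.13 and 0.76 FPKM in control at P36 (difference 0.32, limma adjusted p = 0.188). Of the 12 listed PPAR targets, 5 were higher at P36, and 4 were higher and 1 lower at 6 months. Over all genes 18% were higher at P36, and 23.2% were higher and 18.2% lower at 6 months. Plin2, which coats lipid droplets, was higher by 1.13 at P36 and by 1.67 at 6 months (limma adjusted p = 0.00135 at P36 and 0.00142 at 6 months), beside Cd36, a fatty acid transporter (1.06 at P36 and 1.55 at 6 months).

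Nr3c1, the glucocorticoid receptor, changed in opposite directions at the 2 ages. At P36 it measured 11.49, 10.20 and 10.54 FPKM in DKO and 8.17, 8.70 and 8.21 FPKM in control. It was higher by 0.33 (SE 0.09, limma adjusted p = 0.041), a small difference that stayed called in 3 of 13 alternative settings. At 6 months it measured 18.55, 22.39 and 22.83 FPKM in DKO and 33.12, 29.55 and 32.18 FPKM in control and fell by 0.56 (SE 0.11, limma adjusted p = 0.00734). The groups did not overlap at either age, and the effects differed by -0.88 (SE 0.14, limma adjusted p = 0.00087). Both genotypes had higher Nr3c1 at 6 months than at P36, by 0.92 in DKO and 1.80 in control (limma adjusted p = 1.72e-05 in DKO and 4.69e-08 in control).

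Of the 11 listed glucocorticoid receptor targets, 1 was called at P36, against 23.3% of all genes. It was Fkbp5, a receptor co-chaperone, higher by 1.17 (limma adjusted p = 0.0192). At 6 months, where 41.3% of all genes were called and 18.2% were lower, 2 were called, and both were lower. These were Dusp1, a MAP kinase phosphatase, which fell by 2.87 (limma adjusted p = 0.000346) and is also an immediate early gene, and Ddit4, an mTOR inhibitor, which fell by 0.84 (limma adjusted p = 0.0432). Nr3c2 measured 0.43, 0.43 and 0.28 FPKM in DKO and 1.17, 0.64 and 1.07 FPKM in control at 6 months and was below the filter. With no filter on low values its difference was -0.50 (limma adjusted p = 0.0247). Esr1, the oestrogen receptor, measured 1.35, 1.96 and 1.99 FPKM in DKO and 1.92, 0.80 and 1.60 FPKM in control at 6 months, with overlapping groups and a difference of 0.20 (SE 0.21, limma adjusted p = 0.481). At P36 Esr1 was below the filter, with 0.79, 0.53 and 0.79 FPKM in DKO and 0.29, 0.37 and 0.30 FPKM in control, and its difference without a filter was 0.36 (limma adjusted p = 0.0212).

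**Figure D3:**
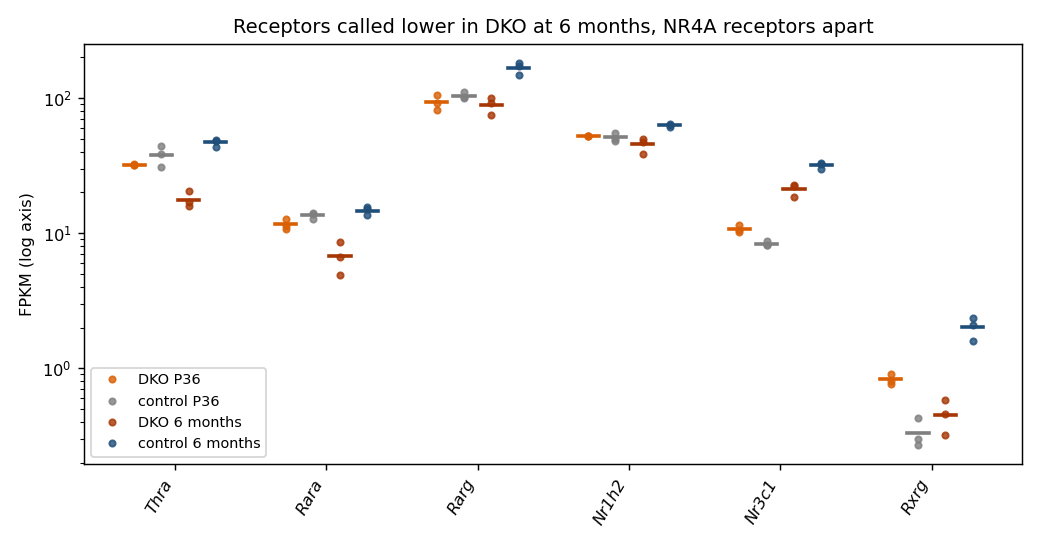
FPKM on a log axis in each library for the receptors called lower in DKO at 6 months other than Nr4a1, at both ages, with a bar at the mean of 3 libraries. At 6 months each DKO group lies below its control group without overlap, while at P36 the groups of Thra, Rara, Rarg and Nr1h2 overlap and Rxrg and Nr3c1 lie higher in DKO.

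The oestrogen-related receptor Esrra, an orphan receptor that drives mitochondrial genes, measured 27.48, 32.93 and 30.33 FPKM in DKO and 24.80, 24.40 and 24.62 FPKM in control at P36. The groups did not overlap, and the difference of 0.28 missed the threshold (SE 0.09, limma adjusted p = 0.0602). It was 0.35 without DKO replicate 1 (limma adjusted p = 0.0354). At 6 months the difference was 0.24 (SE 0.17, limma adjusted p = 0.31). Of the 11 listed targets, 1 was higher at P36 (Acadm, by 0.37) and 7 were higher at 6 months. Among the 7 were Cycs, cytochrome c (1.09, limma adjusted p = 0.000514), Etfdh (0.90) and Ndufs1, a complex I subunit (0.86). Over all genes 18% were higher at P36 and 23.2% at 6 months.

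No COUP-TF or testis receptor was called between genotypes by limma, and 2 of these differences, those of Nr2f2 at P36 and Nr2c1 at 6 months, had p below 0.05 before adjustment. Nr2f6, the abundant one, measured 33.78, 35.16 and 33.31 FPKM in DKO and 31.56, 38.43 and 35.68 FPKM in control at P36, and 17.54, 13.17 and 15.79 FPKM in DKO and 14.41, 24.09 and 22.31 FPKM in control at 6 months. The 6-month difference was -0.34 (limma adjusted p = 0.208), and -0.56 without control replicate 1 (limma adjusted p = 0.0226). Exons of Nr2f6 share 54.4% of their bases with Ocel1, and those of Nr2c2 share 30.7% with Mrps25, each on the opposite strand. Nr2c1, the testicular receptor 2 gene, measured 3.66, 3.90 and 4.34 FPKM in DKO and 5.07, 4.92 and 5.22 FPKM in control at 6 months, without overlap and without a call (-0.29, SE 0.11, limma adjusted p = 0.0724). It was called under median-ratio scaling (-0.35, limma adjusted p = 0.0375) and with totals that leave out keratin and cornified envelope genes (-0.44, limma adjusted p = 0.0186). Nr2f2, a COUP-TF gene of mesenchyme and endothelium, measured 1.18, 1.99 and 1.96 FPKM in DKO and 0.77, 1.06 and 0.92 FPKM in control at P36 (0.49, SE 0.16, limma adjusted p = 0.0658). At P36 smooth muscle and endothelium markers summed to 232 to 272 FPKM in DKO and 93.2 to 134 FPKM in control (5 of 9 higher). Dermal fibroblast markers then summed to 1079 to 1468 FPKM in DKO and 593 to 1172 FPKM in control (5 of 9 higher). Over all genes 18% were higher at P36. The part of these cell types in the Nr2f2 values was not tested. Nr6a1, the germ cell nuclear factor gene, measured 3.72, 2.80 and 4.05 FPKM in DKO and 4.61, 4.18 and 4.26 FPKM in control at 6 months, again without overlap and without a call (-0.25, limma adjusted p = 0.191).

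The NR4A receptors bind DNA without a known physiological ligand in the classical pocket and are controlled in part by how much of their mRNA is made. Their promoters are known from other cells to respond to cAMP through CREB sites. The windows below, credited to RefSeq (GRCm38.p6), run from 250 bases before to 50 after each start and are shown because the 6-month control libraries of these genes lie farther apart, as a ratio, than those of any other receptor reaching 1 FPKM. They are Nr4a1 at chr15:101266596-101266895 (+ strand), Nr4a2 at chr2:57123954-57124253 (- strand) and Nr4a3 at chr4:48045055-48045354 (+ strand), each printed 5′ to 3′ on the strand of the gene. Capitals mark the CREB core TGACG on either strand, which reads CGTCA where it lies on the other strand.
Nr4a1: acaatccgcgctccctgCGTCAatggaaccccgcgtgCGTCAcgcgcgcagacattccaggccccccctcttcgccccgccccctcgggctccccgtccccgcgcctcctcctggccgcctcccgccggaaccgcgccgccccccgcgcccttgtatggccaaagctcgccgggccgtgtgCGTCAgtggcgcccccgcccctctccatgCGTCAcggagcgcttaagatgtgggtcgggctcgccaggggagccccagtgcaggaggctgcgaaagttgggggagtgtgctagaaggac
Nr4a2: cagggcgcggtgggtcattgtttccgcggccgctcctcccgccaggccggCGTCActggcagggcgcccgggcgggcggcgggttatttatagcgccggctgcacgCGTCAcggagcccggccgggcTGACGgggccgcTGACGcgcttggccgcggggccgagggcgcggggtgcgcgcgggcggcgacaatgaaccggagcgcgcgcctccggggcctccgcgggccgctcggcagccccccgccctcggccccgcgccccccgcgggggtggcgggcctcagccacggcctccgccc
Nr4a3: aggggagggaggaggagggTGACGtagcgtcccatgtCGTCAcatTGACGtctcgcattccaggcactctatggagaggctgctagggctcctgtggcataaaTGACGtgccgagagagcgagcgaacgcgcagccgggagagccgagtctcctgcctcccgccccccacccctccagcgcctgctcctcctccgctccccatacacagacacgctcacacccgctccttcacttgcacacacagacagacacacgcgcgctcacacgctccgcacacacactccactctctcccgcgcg
Each window held 4 cores. Of 32851 promoter windows of this length, 20.8% held at least 1 core, 1.03% at least 3 and 0.231% at least 4. A window was available for 28 of the 30 receptors, with 43 windows among them. Counted by gene, 13 of the 28 held at least 1 core in a window, and the 3 NR4A genes were the ones with at least 3. The background is counted by window, so its shares are not on the same footing as these counts. A match describes the letters and is not evidence of a bound site.

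Nr4a1 measured 2.79, 3.47 and 5.42 FPKM in DKO and 769.78, 42.08 and 16.09 FPKM in control at 6 months. The control libraries differed widely among themselves, and the lowest of them still lay above every DKO library. Nr4a1 fell by 4.12 on the log2 scale (SE 1.25, limma adjusted p = 0.0341), and by 2.51 without control replicate 1 (limma adjusted p = 0.00729). The call was lost without DKO replicate 1 (limma adjusted p = 0.0928), without DKO replicate 2 (limma adjusted p = 0.103) and with no filter on low values (limma adjusted p = 0.06). At P36 it measured 9.21, 9.20 and 15.85 FPKM in DKO and 6.90, 10.89 and 9.19 FPKM in control, with overlap and a difference of 0.29 (SE 0.23, limma adjusted p = 0.42). The effects at the 2 ages differed by -4.41 (SE 1.41, limma adjusted p = 0.0312), and by -2.80 without control replicate 1 of 6 months (limma adjusted p = 0.00267). The call of this difference held in 12 of 18 alternative settings, and was lost without DKO replicate 1 or 2 of 6 months, DKO replicate 2 or 3 of P36 or control replicate 1 or 3 of P36.

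Nr4a2 measured 0.88, 0.88 and 1.01 FPKM in DKO and 40.00, 4.11 and 2.09 FPKM in control at 6 months. The order of the control libraries was that of Nr4a1, and the groups did not overlap. The difference was -2.17 (SE 0.86, limma adjusted p = 0.0799), and -1.05 without control replicate 1 (limma adjusted p = 0.0185). Nr4a3 measured 0.89, 0.89 and 1.62 FPKM in DKO and 39.29, 2.87 and 0.89 FPKM in control. Here the groups overlapped, and the difference was -1.66 (SE 1.00, limma adjusted p = 0.222). Both genes were below the filter at P36. Nr4a2 then measured 0.79, 0.61 and 1.03 FPKM in DKO and 0.53, 0.31 and 0.30 FPKM in control, and Nr4a3 measured 0.77, 0.78 and 1.16 FPKM in DKO and 0.73, 1.08 and 0.62 FPKM in control.

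Immediate early genes other than the receptors, a list that includes Fos, Jun and Egr1, were read beside the NR4A genes. Of 16 listed, 10 were lower in DKO at 6 months and 0 were higher, where 18.2% of all genes were lower and 23.2% higher. The median difference of the 16 was -1.63, against 0.04 over all genes. Their summed level was 626 to 818 FPKM in DKO and 1687 to 6275 FPKM in control. The top of the control range was replicate 1 alone, with 1687 FPKM in replicate 2 and 2017 FPKM in replicate 3. Egr2 had the higher mean in DKO, 73.5 FPKM against 55.8 FPKM in control, without a call. Fos, an AP-1 subunit, measured 33.47, 30.40 and 24.92 FPKM in DKO and 736.67, 193.10 and 303.81 FPKM in control and fell by 3.53 (SE 0.44, limma adjusted p = 0.00131). Jund, another AP-1 subunit, fell by 1.63 (SE 0.24, limma adjusted p = 0.00244). Control replicate 1 was the highest library for Fos, as it was for all 3 NR4A genes, and all 3 control libraries of Fos lay above the DKO libraries. At P36 the summed level was 781 to 1032 FPKM in DKO and 780 to 971 FPKM in control, with 1 gene higher (Ier3) and 1 lower (Egr3). Over all genes 18% were higher and 5.32% lower at P36. Tissue handling was not recorded per library, and its part in these values was not tested.

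**Figure D4:**
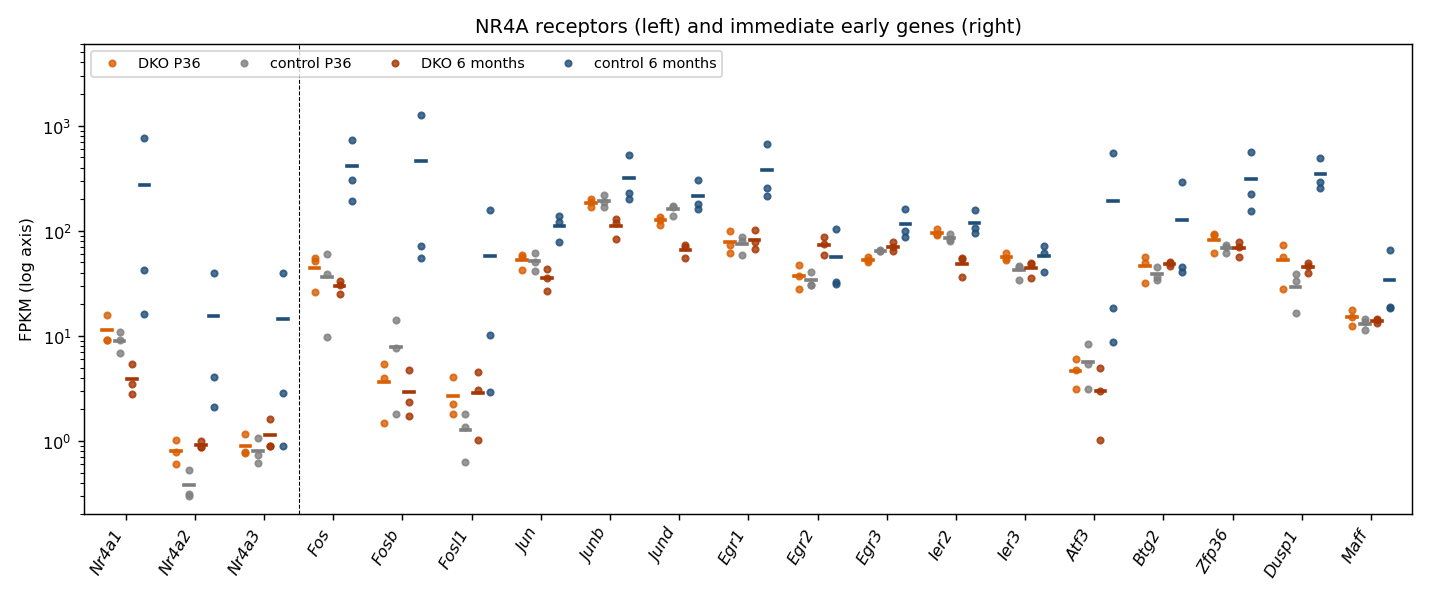
FPKM on a log axis for the 3 NR4A genes (left of the dashed line) and the 16 listed immediate early genes (right), with 1 point per library and a bar at the mean of 3 libraries. Control libraries at 6 months lie highest for most of the genes, and 1 of them reaches 770 FPKM for Nr4a1, against 2.79 to 5.42 FPKM in the DKO libraries of that age.

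Between ages, 12 of the 21 receptors tested were called in DKO, 6 higher and 6 lower at 6 months, and 17 were called in control, 14 higher and 3 lower. Without Rarb and Rxrg, each of which entered the fit through 1 group, the counts were 6 higher and 5 lower in DKO and 13 higher and 2 lower in control. Esr1 reached 1 FPKM only in 6-month libraries and remained among these 19. It passed the filter through that age alone, so an age call of Esr1 adds no support. The background was 60% of all genes in DKO, with 28% higher and 32% lower, and 63.1% in control, with 35.3% higher and 27.9% lower. The groups of the 2 ages did not overlap for 16 of the 21 in DKO (65.9% of all genes) and for 16 in control (69% of all genes). In control the filter fixed the lack of overlap of Rarb and Rxrg, which are also in the medians that follow. The median age difference was -0.07 in DKO and 0.68 in control, against -0.06 in DKO and 0.10 in control over all genes. Nr2f6 was lower at 6 months in both genotypes, with differences of -1.10 in DKO and -0.80 in control (limma adjusted p = 0.000188 in DKO and 0.00134 in control). Ppara was higher in both, by 0.86 in DKO and 1.29 in control (limma adjusted p = 0.000334 in DKO and 1.07e-05 in control). Thra differed between ages by -0.83 in DKO and 0.32 in control (limma adjusted p = 0.000201 in DKO and 0.0463 in control), and Rxrg by -0.33 in DKO and 1.17 in control (limma adjusted p = 0.0419 in DKO and 1.11e-05 in control). The control call of Thra held in 7 of 18 alternative settings and the DKO call of Rxrg in 6 of 14. Rarg was higher at 6 months by 0.68 in control (limma adjusted p = 0.000546) and differed by -0.07 in DKO (limma adjusted p = 0.67).

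The receptors that were lower at 6 months stood beside changes in keratinocyte markers. Over all genes 18.2% were lower and 23.2% higher at that age. Bulge markers (6 genes) summed to 211 to 268 FPKM in DKO and 1763 to 1850 FPKM in control at 6 months, with 4 of 6 lower and 0 higher. Krt15 made up most of these sums, with means of 181 FPKM in DKO and 1644 FPKM in control. Sox9 had the higher mean in DKO, 31.4 FPKM against 21.9 FPKM in control, without a call. Basal markers summed to 3693 to 4452 FPKM in DKO and 4539 to 6162 FPKM in control, with 4 of 6 lower and 0 higher. Among them Krt14 had the higher mean in DKO, 2609 FPKM against 1904 FPKM in control, without a call. Suprabasal markers summed to 11583 to 15008 FPKM in DKO and 15981 to 23135 FPKM in control, with 4 of 7 lower and 2 higher (Krt1 and Ivl). The part of these cells in the receptor levels was not tested.

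In the authors' deposited table, 19 of the 29 receptors with a q-value at P36 and 25 of the 29 at 6 months had q below 0.05. The authors' deposited table had q below 0.05 for 69.9% of all genes at P36 and 80.6% at 6 months, and every receptor called by limma was among them. Which test gave those q-values was not stated, and q lay below p for 64.8% of genes at P36 and 76.3% at 6 months.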

How the data were processed

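Ribosomal RNA-depleted libraries of separated dorsal epidermis were sequenced as single-end reads, per the labels' protocols. HISAT2 2.1.0 and RSEM 1.2.8 are named in the submitters' processing notes, which also name human builds for these mouse samples, so no coordinate was taken from the files. The authors deposited FPKM per gene and library in 1 table per age, with a log2 ratio, a p-value and a q-value beside them, according to the headers; how those were computed was not stated. The age of a column was taken from its table. Of the gene numbers, 19343 of 19392 at P36 and 17712 of 17750 at 6 months matched symbols in the RefSeq table for GRCm38.p6.

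From the FPKM, log2(FPKM + 1) was fitted with limma 3.58.1 in R 4.3.3 (trend on), by age for genotype and over all 12 libraries for age and for the difference of effects. Genes needed 1 FPKM in 3 libraries, and p-values were adjusted over all genes tested; the procedure was tested on simulated data. Depth is unknown, so no counting interval was given. Exon overlaps were read from GENCODE M21. All 30 receptors are named, with up to 3 called genes of smallest adjusted p per target list. The receptors and lists were chosen with earlier results of these data known. Cyp26b1 and the overlapping genes are named outside that rule and were chosen after their values were seen. Some listed genes are counted but not reported here by name.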

Additional observations from a re-analysis of the deposited data

Results flagged for a closer look

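The genotype effect differed between the 2 ages for 9 receptors, by limma's test of the difference itself in a fit of all 12 libraries (6-month effect minus P36 effect, log2 scale, Benjamini-Hochberg adjustment over 13280 genes). Nr3c1 differed by -0.88 (SE 0.14, adjusted p = 0.00087), with DKO above control in every library at P36 and below it in every library at 6 months. Thra differed by -1.15 (SE 0.18, adjusted p = 0.000893). Rarg differed by -0.75 (SE 0.18, adjusted p = 0.00798) and Rara by -0.83 (SE 0.21, adjusted p = 0.0118). Nr1h2 differed by -0.49 (SE 0.14, adjusted p = 0.0172). Nr4a1 differed by -4.41 (SE 1.41, adjusted p = 0.0312), with control values of 16.1 to 770 FPKM at 6 months. Nr1h3 differed by -0.88 (SE 0.30, adjusted p = 0.038). Rxrg and Rarb each entered the fit only through the 3 libraries of their highest group, which limits what their calls show. Rxrg differed by -1.50 (SE 0.18, adjusted p = 0.000221) and reached 1 FPKM only in control at 6 months. Rarb differed by 0.56 (SE 0.18, adjusted p = 0.0301) and reached 1 FPKM only in control at P36.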

How the results depend on the processing

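No receptor call reversed direction under any alternative run (pseudocount 0.1, filters of none and 5 FPKM, median-ratio scaling, rescaling to totals that leave out keratin and cornified envelope genes, a replicate block, each library left out, and for the age-specific calls the joint fit). The count at P36 was 2, and 1 with the 5 FPKM filter, 1 with the rescaled totals and 1 with the replicate block. Median-ratio scaling kept the count at 2, with Nr3c1 lost and Rara called lower. Leaving out a control library of 6 months dropped Rxrg, and leaving out one of P36 dropped Rarb, from the fits that they entered through those libraries. Leaving out 1 library gave 1 to 3 at P36, 5 to 9 at 6 months (7 with all), 6 to 10 for the difference of effects (9 with all), 9 to 13 for age in DKO (12 with all) and 12 to 17 for age in control (17 with all). It gave 21 to 22 receptors reaching 1 FPKM. The 5 FPKM filter, which tests fewer genes, gave 7 for age in DKO and 9 for age in control. Over all genes, 2949 were called at P36, against 1662 without DKO replicate 2 and 1697 without DKO replicate 3.

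The labels do not say whether replicate numbers pair the libraries. Deviations of same-numbered libraries correlated at 0.12, -0.05 and -0.11 at P36 and at -0.07, 0.03 and 0.17 at 6 months. Different-numbered libraries correlated at -0.20 to 0.19 at P36 and at -0.19 to 0.23 at 6 months. With 3 libraries per group these values cannot exclude pairing. With the replicate block Nr3c1 at P36 had an adjusted p of 0.0962, Nr1h3 at 6 months 0.0321, and the Rarb difference 0.0508 (limma). Of all genes called at P36, 77.1% were higher, and 63.8% after median-ratio scaling. At 6 months 56% were higher, and 36.7% with the rescaled totals, which put the median of all genes at -0.12 in place of 0.04. For the difference of effects 39.5% were higher, and 28.6% with the rescaled totals, with the median at -0.19 in place of -0.08. Levels near 1 FPKM are limited by an unknown depth.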

Other observations

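Of 18 nuclear receptors outside the 30, 9 were tested. At P36, 2 were higher in DKO and 0 were lower, where 23.3% of all genes were called. Pparg, the adipocyte and sebocyte PPAR, measured 12.40, 12.08 and 13.80 FPKM in DKO and 2.07, 2.59 and 2.47 FPKM in control and was higher by 2.03 (SE 0.11, limma adjusted p = 0.000168). Of the adipocyte markers, 5 of 7 tested were higher in DKO at P36 and 0 were lower, with a median difference of 2.40. Their sums overlapped, at 831 to 1148 FPKM in DKO and 751 to 1136 FPKM in control. Fabp4 made up most of these P36 sums, with means of 726 FPKM in DKO and 839 FPKM in control, so they say little about the other markers. At 6 months the adipocyte markers summed to 113 to 481 FPKM in DKO and 104 to 582 FPKM in control. Sebaceous gland markers had 3 of 6 higher at each age. The part of either cell type in the Pparg values was not tested. Rora was higher by 0.79 (SE 0.12, limma adjusted p = 0.0034). At 6 months Pparg was higher by 2.04 (SE 0.22, limma adjusted p = 0.000857), and 3 were lower, among them Rxra and Nr1d1. Over all genes 41.3% were called at that age. Rxra, the main epidermal partner of the retinoic acid, PPAR, liver X and thyroid hormone receptors, measured 48.72, 39.37 and 43.70 FPKM in DKO and 83.29, 79.87 and 78.81 FPKM in control and fell by 0.87 (SE 0.10, limma adjusted p = 0.00113). Nr1d1 fell by 1.06 (SE 0.19, limma adjusted p = 0.00447).

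Among 19 coactivators and corepressors tested, Hdac3, a corepressor deacetylase, was higher at P36 by 0.27 (limma adjusted p = 0.0479) and Med1 was lower. At 6 months 3 were higher and 4 were lower. The shares called over all genes were 23.3% at P36 and 41.3% at 6 months, so neither count stands above the background. Hdac3 was higher by 0.57 (limma adjusted p = 0.00203), Ncoa4 was higher by 0.56 (limma adjusted p = 0.00331), and Tbl1x, a corepressor exchange factor, fell by 0.40 (limma adjusted p = 0.0108).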
